A study of Mus musculus with 16 samples.

Results

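Mouse macrophages that had all been given the same dose of lipopolysaccharide (LPS, a glycolipid of the bacterial outer membrane) were separated by side scatter, and the transcripts of the high and the low gate were compared across all genes, with the weight on genes other than cytokines. The libraries described are the 4 of cells with high side scatter, which the series calls responders, and the 4 of cells with low side scatter, which it calls bystanders. They were chosen by gate, with no use of any transcript, and are 8 of the 16 libraries of the series. All 16 come from iBMDM MyD88-AGF, a single immortalised line of bone-marrow-derived macrophages whose genotype is given as MyD88-AGF WT. What AGF stands for is not given in the sources used here. Responders and bystanders had both received LPS at 10 ng/mL for 6 h. The other 8 libraries serve as reference levels: 4 of an LPS pool with the same dose and time, and 4 of untreated cells, each passed through the sorter with no scatter gate after the gated cells had been collected. Nothing in the labels states whether the 4 replicates of a group were grown apart, so p-values here cover only the variation among these libraries, part or all of which may be technical.

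LPS is sensed by TLR4, which signals from the cell surface through the adaptor MyD88 and, after internalisation, through the adaptor TRIF. MyD88 assembles with IRAK kinases into the myddosome, which switches on NF-kappaB and MAP kinases, while the TRIF branch is known for type I interferon. Side scatter is the light that a cell's granules and other internal structures deflect, and a macrophage that is activated changes its vesicles, its cytoskeleton and its shape as well as its secreted products.

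The files hold 1 count per gene and library, with 22457211 to 23898399 counts in responder libraries and 16178278 to 25193162 in bystander libraries, and 12589 genes had enough counts to be tested. Levels are CPM, the counts scaled to a fixed library total after TMM normalisation (a trimmed mean of log ratios between libraries), and differences are fitted log2 folds of responders over bystanders from edgeR's quasi-likelihood test, with Benjamini-Hochberg adjusted p under 0.05 as the threshold. The first principal component of the 8 libraries held 74.1% of the variance and separated the gates. The next, with 11.8%, set responder 1, bystander 3 and bystander 4 apart from the other 5 libraries, and these 3 are also the ones with 20 or more reads of the neuronal gene Stmn2. All 10 macrophage markers were detected, with a summed level of 6020 to 6070 CPM in responders and 4800 to 4830 in bystanders. Of the markers of other cells, 20 neural genes summed to 44.2 to 60.7 CPM in responders and 55.1 to 68.3 in bystanders (Mobp at 0), 8 fibroblast genes to 9.09 to 31.1 and 2.18 to 80.3, 9 neutrophil genes to 1.14 to 2.15 and 0.205 to 0.427 (S100a9, Ly6g and Retnlg at 0), and 8 dendritic cell genes to 4.95 to 6.27 and 7.92 to 9.35 (Siglech and Ccr7 at 0). The 10 lymphocyte genes (7 at 0) stayed at or below 1.15 CPM in every library of both gates, and the 7 erythroid and platelet genes (4 at 0) at or below 0.938. The part of these cells in any difference was not tested.

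The gates differed in most of the transcriptome, mostly by small amounts. At adjusted p under 0.05, 8813 genes (70.0%) differed, 4364 of them (34.7%) higher in responders and 4449 (35.3%) lower. At least 2-fold higher were 733 genes (5.82%) and at least 2-fold lower 671 (5.33%). For 8047 genes (63.9%) the 4 responder and 4 bystander libraries did not overlap. The 733 higher genes took 11.1 to 11.3% of all counts in responder libraries and 3.11 to 3.28% in bystander libraries, beside 10.0 to 10.1% in the LPS pool and 2.17 to 2.18% in untreated cells. Cytokines, chemokines and growth factors, which are left aside here, took 5.30 to 5.46% of the counts in responders and 1.97 to 2.03% in bystanders. The 671 lower genes took 0.767 to 0.770% of the counts in responders and 2.28 to 2.31% in bystanders. Scaling by library totals alone moves the median log2 difference of all genes from -0.01 to -0.20 and the calls to 2580 higher and 6695 lower, so a difference of that size holds only against the middle of the transcriptome. In bulk RNA, fewer cells of a kind and less RNA per cell cannot be told apart.

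**Figure D1:**
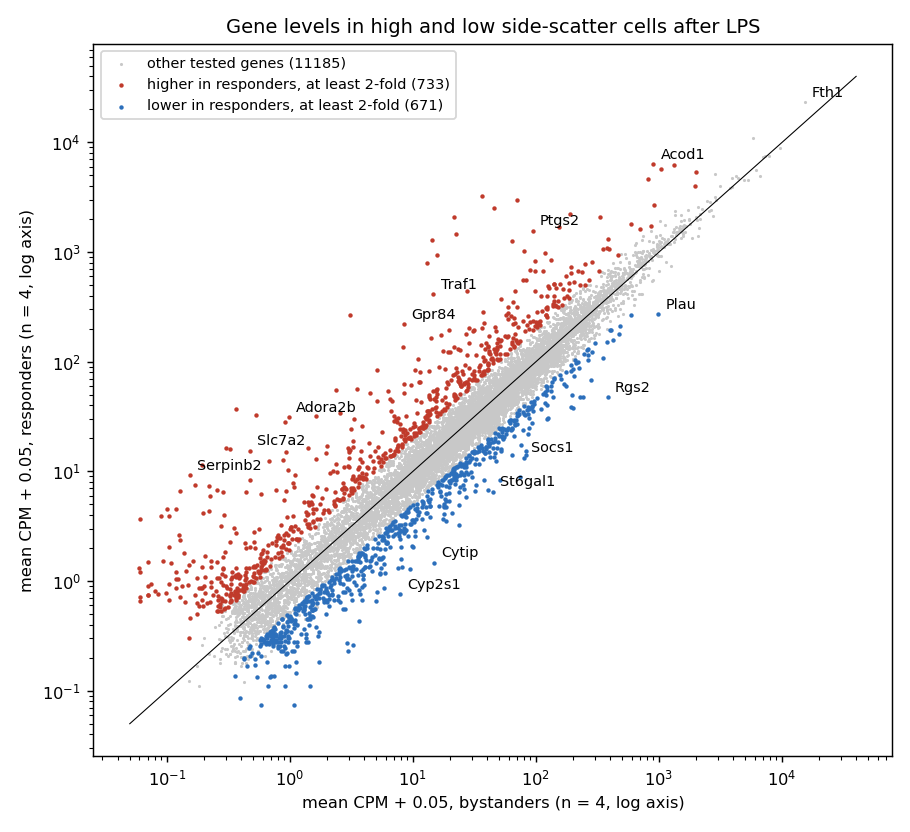
Mean CPM of each of the 12589 tested genes in bystanders (x axis) and responders (y axis), 4 libraries each, on log axes after adding 0.05, with the line of equal levels. The 733 genes at least 2-fold higher in responders are red and the 671 at least 2-fold lower are blue. Acod1 and Ptgs2 sit among the abundant red genes, and Rgs2 and Plau among the abundant blue ones.

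The LPS pool and untreated cells give reference levels for both gates. Of 482 genes at least 2-fold higher in responders and with at least 5 CPM there, bystanders were within 2-fold of the untreated mean for 329, at least 2-fold above it for 118 and at or below 50% of it for 35. Responders were within 1.5-fold of the pool mean for 480 of the 482 and above it for 469. The 362 genes at least 2-fold lower in responders, with at least 5 CPM in bystanders, were within 2-fold of the untreated mean in bystanders for 261, at least 2-fold above it for 98 and at or below 50% of it for 3. For the higher genes bystanders stood at a median of 1.14 times untreated cells and 0.406 times the pool, and for the lower genes at 1.27 times untreated cells and 2.26 times the pool. No test was made of these ratios.

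Several receptor genes and 1 adaptor gene were among those with high folds in responders. Traf1 (chromosome 2, 34941750 to 34961812) encodes an adaptor of tumour necrosis factor receptors. It stood at 417, 402, 413 and 414 CPM in responders 1 to 4 and at 12, 10.8, 17.7 and 18.1 in bystanders 1 to 4, and the difference was 27.1-fold (log2 4.76, SE 0.081, adjusted p = 1.23e-15, edgeR). Bystanders lay near the 13.3 to 15.7 CPM of untreated cells and responders above the 353 to 361 of the pool. Gpr84 (chromosome 15, 103308233 to 103310670), a receptor for medium-chain fatty acids, was at 222, 221, 218 and 217 CPM in responders and 7.33, 6.36, 10.2 and 9.96 in bystanders. This 25.1-fold difference (log2 4.65, SE 0.064, adjusted p = 4.97e-24, edgeR) put bystanders below untreated cells, which had 11.9 to 14.9 CPM. Adora2b (chromosome 11, 62248984 to 62266452) encodes an adenosine receptor that raises cAMP. It was at 29.4, 32.3, 31.1 and 31.2 CPM in responders and 0.916, 0.545, 1.24 and 1.02 in bystanders, with 0.566 to 1.4 in untreated cells, a 31.7-fold difference (log2 4.99, SE 0.12, adjusted p = 3.54e-44, edgeR). Tarm1, an activating receptor of myeloid cells, was at 53.6, 55.7, 55.4 and 55.8 CPM against 1.26, 2.36, 2.37 and 3.32 (22.8-fold), and Tnfrsf1b (chromosome 4, 145212368 to 145246870), the second receptor for TNF, at 1685, 1678, 1682 and 1688 against 140.2, 139, 167 and 164 (11-fold). For each of these 5 genes the groups were far apart, and the lowest responder exceeded the highest bystander. The gates did not overlap for 63.9% of all genes. Traf1, Gpr84, Adora2b and Tarm1 were picked among the highest folds by a rule that required no overlap.

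Several of the strongest genes were near the limit of detection in bystanders, so reads are given in place of folds. Serpinb2, the gene of plasminogen activator inhibitor type 2, had 180, 188, 176 and 217 reads in responders and 0, 1, 6 and 3 in bystanders. Fpr1, a receptor for bacterial formyl peptides, had 136, 192, 139 and 140 against 1, 1, 8 and 6, and its relative Fpr2 277, 254, 265 and 272 against 29, 24, 35 and 45. Urah, of the uric acid breakdown pathway, had 159, 162, 128 and 164 against 0, 0, 6 and 6. Bystanders 3 and 4 supplied most of the bystander reads for Serpinb2, Fpr1 and Urah, as also for Tnfrsf8, the CD30 gene, at 1, 0, 12 and 12 reads beside 319, 330, 321 and 392 in responders. Also low in bystanders was Slc7a2, the arginine transporter, with 324, 346, 293 and 311 against 6, 1, 12 and 20. Styk1, a kinase-like gene, had 123, 130, 111 and 128 against 1, 6, 5 and 2. Its mean CPM was 0.138 in bystanders 3 and 4 and 0.21 in bystanders 1 and 2. The non-coding 6530402F18Rik had 308, 363, 323 and 338 against 2, 6, 8 and 8. Bystanders 3 and 4 also had more counts in all, 25193162 and 23836035 beside 17061975 and 16178278 in bystanders 1 and 2. Each of the 8 genes passed the test in edgeR, at adjusted p from 6.68e-40 (6530402F18Rik) to 5.22e-19 (Tnfrsf8).

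Some genes of enzymes and secreted proteins were also far higher in responders. Ptgs2 (chromosome 1, 150100031 to 150108234), which encodes the prostaglandin-forming cyclooxygenase-2, stood at 1491, 1580.2, 1611 and 1559.7 CPM in responders and 80, 88.6, 103 and 106 in bystanders. The difference was 16.4-fold (log2 4.03, SE 0.063, adjusted p = 5.15e-16, edgeR), and bystanders were above the 36.1 to 39.2 CPM of untreated cells. Acod1 (chromosome 14, 103047012 to 103056573), which makes itaconate from the citrate cycle, was at 6248, 6371, 6409 and 6313 CPM against 845, 852, 946 and 943, 7.06-fold apart (log2 2.82, SE 0.034, adjusted p = 4.23e-20, edgeR). Here too bystanders exceeded untreated cells, at 85.2 to 90.8 CPM. Mmp13 (chromosome 9, 7272514 to 7283333), a collagenase gene, followed the same order, with 987, 1028, 1029.5 and 1015 CPM in responders, 73.1, 75.8, 83.4 and 86.7 in bystanders and 5.53 to 6.66 untreated (12.6-fold). Cfb, complement factor B, was at 430.2, 442, 441 and 435 against 24.2, 22.1, 31.6 and 31.9 CPM (15.6-fold), beside 4.45 to 5.14 untreated. Upp1, uridine phosphorylase, was at 83, 86, 86.5 and 83.2 against 4.12, 3.88, 5.59 and 6.48 CPM (16.3-fold), beside 0.405 to 0.772 untreated. For these 5 genes bystanders lay between untreated cells and responders in all 4 libraries, nearer to untreated cells on the linear scale.

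**Figure D2:**
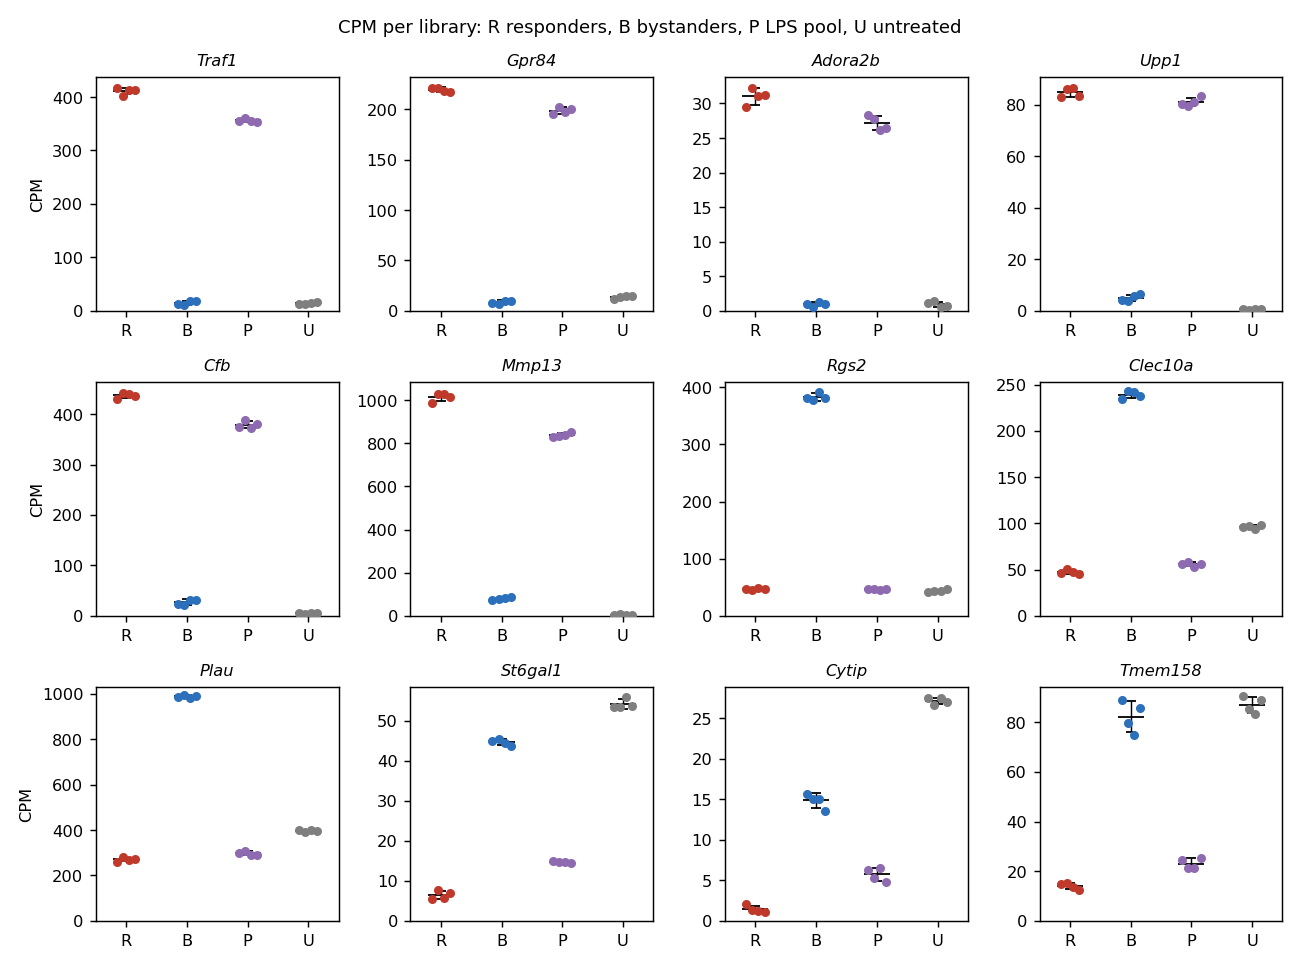
CPM of 12 genes in each library, with points for the 4 replicates, the mean as a bar and the SD as whiskers, on linear axes from 0. The upper 6 genes are high in responders (R) and the LPS pool (P). Rgs2, Clec10a and Plau are highest in bystanders (B) alone, while St6gal1, Cytip and Tmem158 are high in untreated cells (U) and bystanders.

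Other genes with large gains in CPM encode surface, lysosomal and signalling proteins. Clec4e, the Mincle receptor for microbial glycolipids, stood at 2082 ± 41.8 CPM in responders and 329 ± 12.7 in bystanders (SD, n = 4 each). Marcksl1, an actin-binding MARCKS relative, was at 1257 ± 19.7 against 63.4 ± 12.9, Slc15a3, a lysosomal exporter of histidine and peptides, at 1792 ± 26.6 against 596 ± 15, and Mapkapk2, the kinase below p38 that stabilises inflammatory mRNAs, at 1313 ± 13.5 against 384 ± 10.3. Sqstm1, the autophagy receptor p62, was at 1638 ± 17.8 against 706 ± 8.26 and Ctsz, a lysosomal protease, at 1912 ± 25.7 against 1016 ± 15.8. These 6 genes were higher by 1.88-fold (Ctsz) to 19.4-fold (Marcksl1), and each passed edgeR's test (adjusted p = 8.42e-15 for Marcksl1, the largest of the 6).

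Genes that were lower in responders fell into 2 patterns of level. In the first, bystanders stood above untreated cells as well as above responders and the pool. Rgs2 (chromosome 1, 143999338 to 144004149), which shortens G-protein signals, was at 47.5, 45, 49.1 and 47.5 CPM in responders and 381, 378, 392 and 381 in bystanders. Untreated cells had 42.2 to 46.7 CPM and the pool 44.8 to 47.7, both close to responders, so bystanders stood alone (8.11-fold above responders, log2 -3.02, SE 0.029, adjusted p = 1.47e-64, edgeR). Plau (chromosome 14, 20836662 to 20843388), the plasminogen activator urokinase, was at 261, 279.6, 269.9 and 274 CPM against 988, 994, 981 and 989, with 391 to 399.9 untreated (3.64-fold, log2 -1.86, SE 0.021, adjusted p = 8.25e-61, edgeR). Its inhibitor gene Serpinb2 had the opposite order. Otud1, a deubiquitinase, was at 8.51, 7.16, 9.01 and 8.45 against 54.8, 50.5, 48.6 and 51.9 CPM and 3.76 to 5.2 untreated. Enc1, a Kelch-domain gene, was at 16.7, 15, 14.7 and 15.1 against 79.8, 84.4, 83.7 and 83.6 CPM and 17.9 to 21.6 untreated, and Clec10a, a galactose-type lectin receptor, at 46.3, 50.5, 47.7 and 44.8 against 234, 243, 242 and 237 and 94.2 to 97.8 untreated. In all 5 genes no bystander library overlapped with any library of the other groups. Between the gates alone, 63.9% of all genes did not overlap, and the rule that picked the lowest folds, all but Plau here, required it.

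In the second pattern, bystanders were near the untreated level and responders below it. St6gal1 (chromosome 16, 23224729 to 23360350), which caps surface glycans with sialic acid, was at 5.57, 7.7, 5.72 and 6.86 CPM in responders and 44.8, 45.4, 44.5 and 43.6 in bystanders, beside 14.4 to 14.9 in the pool and 53.3 to 55.9 untreated. The difference was 6.88-fold (log2 -2.78, SE 0.063, adjusted p = 1.19e-44, edgeR). Tmem158 was at 14.7, 15.2, 13.7 and 12.4 CPM against 89, 79.7, 74.7 and 85.6, with 83.3 to 90.3 untreated (5.86-fold). Cyp2s1, a cytochrome P450 gene, had 13, 12, 8 and 26 reads in responders and 138, 135, 213 and 167 in bystanders (10.8-fold, log2 -3.44, SE 0.17, adjusted p = 1.13e-26, edgeR), the largest fitted difference among the named lower genes. Cytip, an adaptor of cytohesins in cell adhesion, was 10.4-fold lower but sat in bystanders at 13.6 to 15.7 CPM, between the pool at 4.86 to 6.58 and untreated cells at 26.7 to 27.6. The NLR gene Nlrp1b, an inflammasome sensor, was at 1.14, 1.48, 1.94 and 1.54 CPM against 7.79, 6.61, 8.54 and 8.61 (5.2-fold). St6gal1, Tmem158 and Cyp2s1 in the pool, at 14.4 to 14.9, 21.1 to 25.3 and 1.69 to 2.52 CPM, lay between the gates.

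Among receptors for uptake and recognition the 26 members tested included 13 higher (50%) and 12 lower (46.2%), 6 and 3 of them at least 2-fold, and their median log2 difference was 0.03 (-0.01 over all genes). Over all genes tested 34.7% were higher and 35.3% lower, 5.82% and 5.33% at least 2-fold, and no list was tested against these shares. Scaled by library totals alone, 11 members were higher and 14 lower (median -0.16). Fcgr2b, the inhibitory receptor for immunoglobulin G, was at 110, 120.1, 117 and 117 CPM in responders and 25.5, 25.3, 29.8 and 29.6 in bystanders (4.16-fold). Trem2 (chromosome 17, 48346401 to 48352276), a lipid-sensing receptor of microglia and macrophages, went the other way, at 88.1, 85.3, 83.7 and 85.2 CPM against 202, 197, 197 and 200.3, with 219 to 232 untreated (2.33-fold lower, log2 -1.22, SE 0.027, adjusted p = 3.06e-45, edgeR). Clec7a, the beta-glucan receptor Dectin-1, was at 53.7 ± 2.94 against 94.9 ± 0.875 CPM, and Axl, a receptor kinase for the uptake of apoptotic cells, at 3.15 ± 0.409 against 6.48 ± 0.497 (SD, n = 4). Of 18 tetraspanins, membrane organisers with 4 membrane passes, 5 were higher and 10 lower (median -0.21), or 3 and 14 with library totals alone. Cd82 was 1.43-fold higher, and Tspan13 2.22-fold and Tspan32 1.7-fold lower. Of 21 semaphorins, plexins and neuropilins, guidance ligands and their receptors, 7 were higher and 10 lower (median -0.35, or -0.13 against bystanders 1 and 2 alone), and 5 and 14 with library totals alone. The ligand Sema3c was 2.06-fold higher, while the receptor Plxnc1 was 1.56-fold lower. The co-receptors Nrp2 and Nrp1 differed in opposite directions, Nrp2 at 720.2, 717, 724 and 718 CPM in responders against 458, 456, 472 and 462 in bystanders and Nrp1 at 59, 57.9, 56.8 and 56.6 against 84.5, 91.7, 81.4 and 89.2.

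Transcripts of cAMP and calcium signalling genes differed in both directions. Of 32 genes of cAMP and G-protein signalling, 14 were higher and 14 lower, 5 each at least 2-fold, and 9 and 19 with library totals alone. Phosphodiesterases of the PDE4 family break down cAMP. Pde4b (chromosome 4, 102087332 to 102607275) stood at 59.7, 60.7, 62.5 and 61.4 CPM in responders and 8.24, 9.03, 9.93 and 11.5 in bystanders (6.21-fold, log2 2.63, SE 0.057, adjusted p = 7.57e-46, edgeR), and Pde4d at 1.57, 1.68, 1.89 and 1.21 against 4.92, 6.49, 6.29 and 4.47 (3.48-fold lower, log2 -1.80, SE 0.16, adjusted p = 1.02e-15, edgeR). Crem, a transcription factor of the cAMP response, was at 24.6, 29.1, 27 and 27.4 CPM against 70, 68.9, 68.3 and 63.8, with 10.1 to 12.2 untreated (2.5-fold lower). Prkar2b, a regulatory subunit of protein kinase A, was 2.12-fold lower. Of the genes named here and above, Adora2b, for a receptor that raises cAMP, Gpr84, a receptor gene of the same list, and the enzyme gene Pde4b were higher in responders. Pde4d of the same enzyme family, Prkar2b, Crem and the signal-shortening Rgs2 were higher in bystanders. Of 48 calcium and ion channel genes 22 were higher (45.8%) and 17 lower (35.4%, median 0.11), but 15 and 23 with library totals alone (median -0.08). Only 3 were at least 2-fold higher and 4 at least 2-fold lower. The store-operated calcium channel genes Orai1 and Orai2 were at 49.1, 49, 48.4 and 47.4 against 22.6, 20.4, 22.2 and 21.4 CPM and at 43.3, 41.9, 41.2 and 39.2 against 19.7, 18.4, 21.5 and 18.4, 2.23-fold and 2.11-fold higher. Kcnj2, an inward-rectifier potassium channel, was 2.19-fold higher. Untreated cells had 17.6 to 21.2 CPM of Orai1, near bystanders, but 44.4 to 47.4 of Orai2, above responders. For Kcnj2 they had 35.0 to 38.2, above responders at 18.6 to 25.5 and bystanders at 9.46 to 10.7. The mitochondrial calcium channel gene Mcu was 1.83-fold, the calcium-regulated factor Nfatc1 1.66-fold and the kinase Camk1 2.03-fold lower.

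Of 33 tubulin, septin and intermediate filament genes 17 were higher (51.5%) and 9 lower (27.3%), beside 34.7% and 35.3% of all genes. This direction turned to 8 and 18 with library totals alone. Mapre2, a microtubule-end protein, was the only member past 2-fold, at 283 ± 3.12 against 102 ± 1.85 CPM (SD, n = 4 each, 2.79-fold). Septin11 was 1.5-fold higher, and Stmn1, which takes microtubules apart, 1.41-fold lower.

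Of the kinase and growth-factor pathways, the PI3K, AKT and mTOR list of 34 had 9 members higher (26.5%) and 17 lower (50%), beside 34.7% and 35.3% of all genes (median -0.10), and 4 and 25 with library totals alone. Among the members at least 2-fold higher were Ddit4, an inhibitor of mTOR, at 27.4, 26.8, 27.8 and 30.2 CPM against 13.1, 13.7, 13.7 and 13.1, and Pik3r6, a regulatory subunit of PI3K gamma, at 21.6, 21.2, 23 and 22.7 against 9.62, 9.7, 11.5 and 11.4. Untreated cells had 27.6 to 29.8 CPM of Ddit4, near responders, and 7.75 to 8.05 of Pik3r6, below bystanders. Rptor, the mTOR complex 1 scaffold, was 1.54-fold and Foxo4 1.99-fold lower. Of 29 protein tyrosine phosphatases 10 were higher and 9 lower (8 and 13 with library totals alone). The receptor-type Ptprj and Ptpre were 2.11-fold and 2.15-fold higher, and Ptpro, at 21.1, 23.1, 21.6 and 21.4 against 57.3, 57, 54.8 and 58.6 CPM, 2.62-fold lower. Of 27 TGF-beta and BMP genes 10 were higher and 10 lower (8 and 12 with library totals alone). Tgfbr2 (chromosome 9, 116087695 to 116175363), the ligand-binding TGF-beta receptor, was at 35.7, 32.1, 34.2 and 32 CPM against 81.1, 83.7, 77.7 and 80.1, with 43 to 45.2 untreated (2.4-fold lower, log2 -1.26, SE 0.046, adjusted p = 5.49e-31, edgeR). The Id proteins block basic helix-loop-helix factors. Id3 was at 53.4, 58.5, 52.4 and 53.2 CPM against 13.9, 14.8, 13.8 and 15.7 (3.74-fold higher) and Id1 at 7.18, 9.04, 8.02 and 8.4 against 20.8, 18.3, 20.1 and 19.1 (2.4-fold lower). Of 20 Notch genes 8 were higher and 8 lower (6 and 11 with library totals alone). The co-activator Maml1 was 1.81-fold higher and its relative Maml3 3.09-fold lower. The shares higher and lower in these last 3 lists, 34.5 to 40.0% and 31.0 to 40.0%, were near the 34.7% and 35.3% of all genes.

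**Figure D3:**
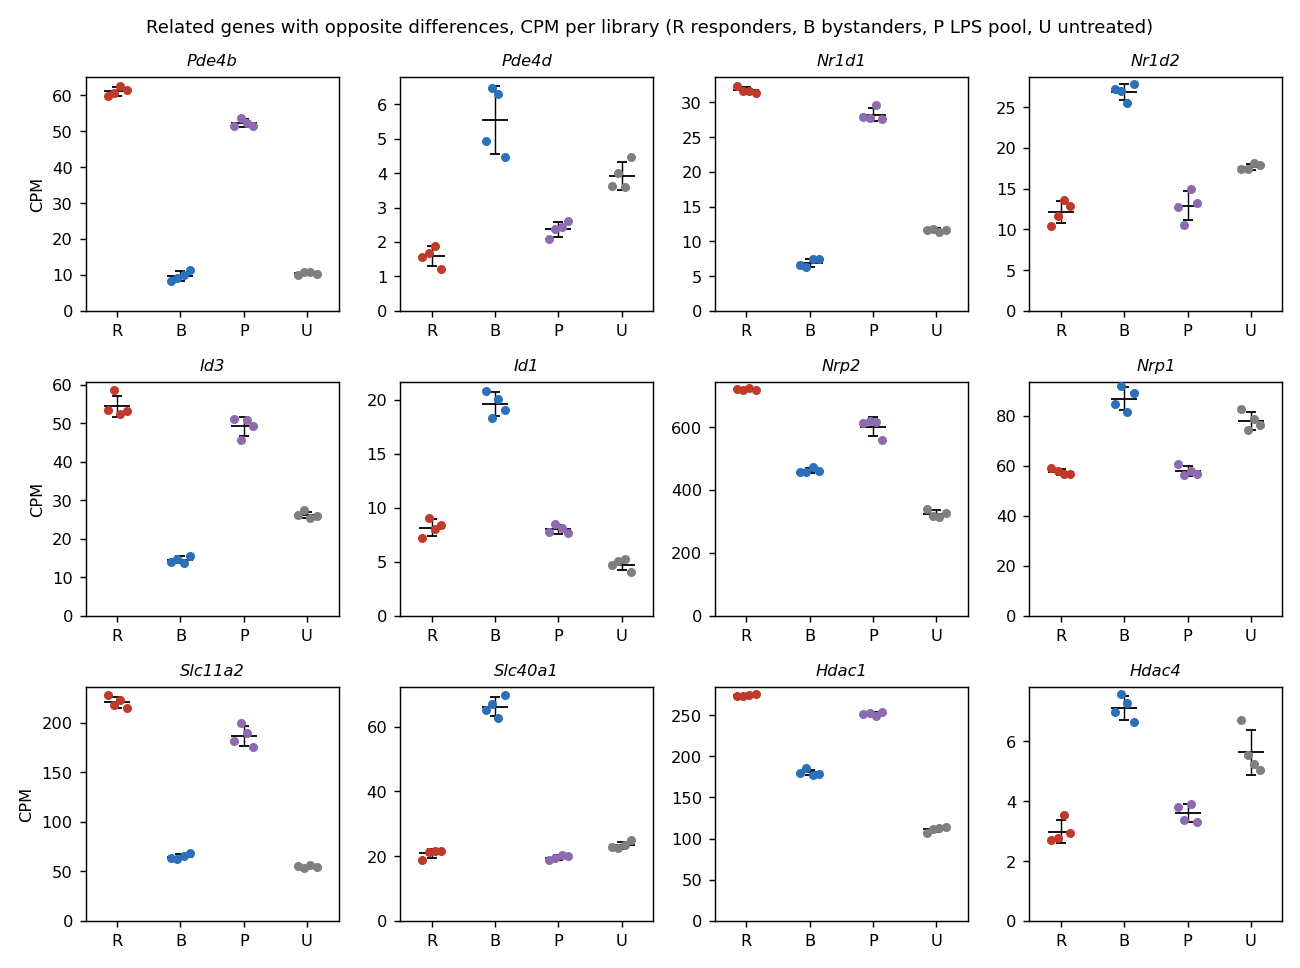
CPM of 6 pairs of related genes in each library, with points for the 4 replicates, the mean as a bar and the SD as whiskers, on linear axes from 0. Pde4b, Nr1d1, Id3, Nrp2, Slc11a2 and Hdac1 are higher in responders (R) than in bystanders (B), and Pde4d, Nr1d2, Id1, Nrp1, Slc40a1 and Hdac4 are lower. P is the LPS pool and U untreated cells.

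Carriers of metals were among the named genes in both directions. The 6 pairs plotted and the Maml genes were singled out after their values were seen. Of 216 solute carriers 91 were higher and 72 lower, 20 and 17 at least 2-fold, and 63 were higher and 106 lower with library totals alone, where the median turned from 0.03 to -0.16. Slc11a2 (chromosome 15, 100387898 to 100424209), the importer DMT1 that moves iron into the cytosol, was at 227, 218, 222 and 215 CPM in responders and 63, 62.2, 65.8 and 68.1 in bystanders (3.39-fold, log2 1.76, SE 0.032, adjusted p = 1.42e-46, edgeR). Slc40a1 (chromosome 1, 45908070 to 45926532), ferroportin, the exporter of iron, was at 18.9, 21.3, 21.7 and 21.6 against 65.2, 67, 62.8 and 69.7 (3.17-fold lower, log2 -1.66, SE 0.048, adjusted p = 8.43e-39, edgeR), with 22.5 to 25 untreated and 18.7 to 20.2 in the pool. The ferritin chains store iron. Fth1, the heavy chain, was at 22679.5, 23563, 23359 and 23200 CPM against 14951, 15082, 15523 and 15518 (1.52-fold higher) and Ftl1, the light chain, at 4546, 4626, 4489 and 4664 against 5307, 5446, 5435 and 5135 (1.16-fold lower). Both ferritins have near-identical copies in the genome, so their counts are uncertain. Slc31a2, a copper carrier, was 3.73-fold higher, at 149, 147, 145 and 151 against 39.4, 35.9, 40 and 42.5 CPM. Slc17a5, the lysosomal exporter of sialic acid, was 3.44-fold lower.

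Metabolic lists had small medians. Of 25 genes of amino acid transport and synthesis 13 were higher and 7 lower (median 0.12), and 9 and 13 with library totals alone (median -0.07). The members lower numbered 4 against bystanders 1 and 2 alone. Slc7a8, a carrier of neutral amino acids, was at 328, 311, 324 and 318 CPM against 139.5, 145, 152 and 144 (2.2-fold higher), Slc7a11, the cystine importer, at 77.1, 77.9, 77.3 and 82.7 against 39, 41.8, 36.7 and 40.5 (2.0-fold higher), and Slc38a2, a glutamine carrier, at 123, 132, 129 and 128 against 264, 264, 266 and 249.7 (2.04-fold lower). Got1, an aspartate aminotransferase, was 1.46-fold lower. Of 32 pentose phosphate and nucleotide genes 12 were higher and 12 lower (8 and 19 with library totals alone). These shares, 37.5% each, were near those of all genes. G6pdx, which opens the pentose phosphate pathway, was 1.26-fold higher, while Rrm1, a ribonucleotide reductase subunit, was 1.46-fold, Prps2 1.41-fold and Paics, of purine synthesis, 1.35-fold lower. Of 34 sphingolipid and phospholipid enzymes 14 were higher and 14 lower (11 and 20 with library totals alone). That was 41.2% each way, beside 34.7% and 35.3% of all genes. Lpcat2, which makes platelet-activating factor, was at 78.8, 78.3, 72.9 and 76.5 CPM against 25.2, 24.7, 24.5 and 26.8 (3.02-fold), Agpat4 was 2.41-fold and Degs1, of ceramide synthesis, 2.24-fold higher. Lpin1, a phosphatidate phosphatase, had 30, 20, 19 and 24 reads in responders and 99, 90, 139 and 122 in bystanders (4.75-fold lower).

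**Figure D4:**
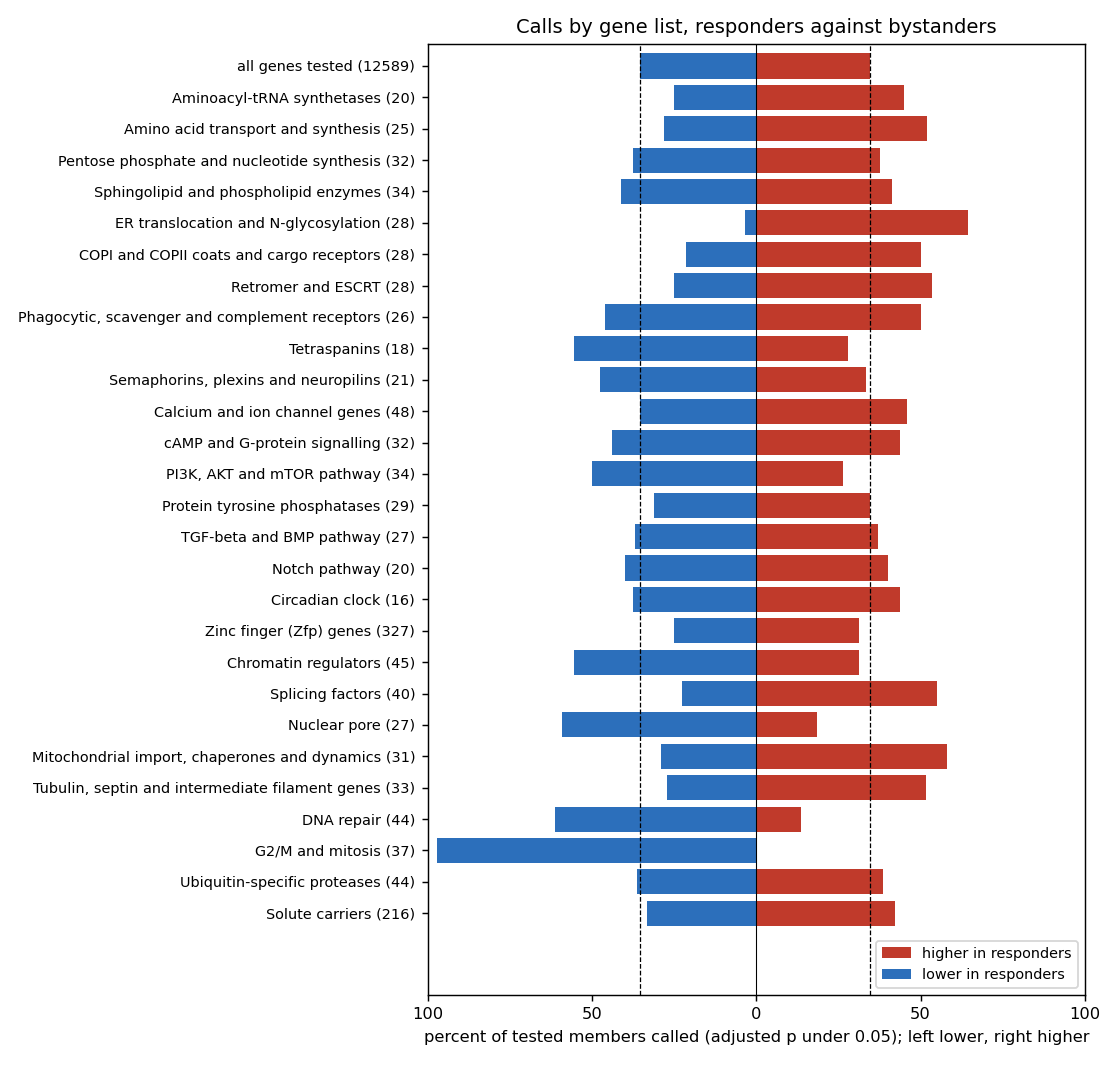
Percent of the tested members of each of 27 gene lists that were higher (right, red) or lower (left, blue) in responders, with the number tested in brackets and dashed lines at the 34.7% and 35.3% of all 12589 genes. The G2/M list has 97.3% lower and none higher, and the ER translocation list 64.3% higher and 3.57% lower.

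In 5 lists of the secretory route, endosomes, mitochondria and tRNA charging, 45.0 to 64.3% of the members were higher and 3.57 to 29.0% lower, beside 34.7% and 35.3% of all genes. The difference from all genes was not tested. Of 28 genes of ER translocation and N-glycosylation 18 were higher and 1, Stt3b, lower (median 0.11). Scaled by library totals alone, 5 members were higher and 15 lower (median -0.08). Srprb and Srpr, the subunits of the receptor that docks ribosomes at the ER, were at 154, 157, 154 and 159.7 against 105, 101, 106 and 106 CPM and at 238, 237, 239 and 235 against 170.3, 169, 171 and 167, 1.49-fold and 1.4-fold higher, and Ssr2, a translocon subunit, was 1.39-fold higher. Of 28 COPI, COPII and cargo receptor genes 14 were higher and 6 lower (3 and 18 with library totals alone). Sec23b, an inner coat subunit, was 1.38-fold higher and Sec24d, a cargo-binding coat subunit, 1.33-fold lower. Of 28 retromer and ESCRT genes, which sort and seal endosomes, 15 were higher and 7 lower (8 and 13 with library totals alone). Vps37c was 1.55-fold and Chmp4b, the filament subunit of ESCRT-III, 1.38-fold higher, at 596, 619, 604 and 600.4 against 436, 426, 440.1 and 450.4 CPM, while the retromer core Vps35 was 1.19-fold lower. Of 31 genes of mitochondrial import, chaperones and dynamics 18 were higher and 9 lower, again 8 and 16 with library totals alone. Hspe1, a matrix chaperonin, was 1.4-fold higher and Opa1, the inner-membrane fusion protein, 1.31-fold lower. Of 20 aminoacyl-tRNA synthetases 9 were higher and 5 lower, none by 2-fold, but 2 and 14 with library totals alone. Gars was 1.24-fold higher and Vars 1.3-fold lower. In these 5 lists the direction of the majority turned with the scaling, while the genes named kept theirs.

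With TMM scaling, lists of genes that act on chromatin, nuclear transport and mRNA differed among themselves in direction. With library totals alone, more members were lower than higher in each of them. The shares of all genes tested were 34.7% higher and 35.3% lower. Of 45 chromatin regulators 14 were higher (31.1%) and 25 lower (55.6%, median -0.12), and 6 and 33 with library totals alone. Ep300 (chromosome 15, 81586209 to 81652077), an acetyltransferase co-activator, was at 52.3, 52, 53.8 and 54.8 CPM against 119.8, 119.8, 117 and 119.5, with 48.4 to 51 in the pool and 59.6 to 62.3 untreated (2.24-fold lower, log2 -1.16, SE 0.032, adjusted p = 2.53e-40, edgeR). Smarca2, the BRM ATPase, was 2.06-fold lower. The deacetylase genes Hdac1 and Hdac4 differed in opposite directions, at 273, 273, 275 and 276 against 179.8, 185, 178 and 179 CPM (1.52-fold higher) and at 2.71, 2.77, 3.53 and 2.94 against 6.99, 7.58, 7.3 and 6.64 (2.38-fold lower). Of 27 nuclear pore genes 5 were higher (18.5%) and 16 lower (59.3%, median -0.14), with 1 and 23 with library totals alone. Nup210 was 1.38-fold and Nup155 1.37-fold lower. Nup62 was 1.2-fold higher, while Nup50 and Nup37, 1.11-fold and 1.09-fold higher, turned to -0.04 and -0.07 on the log2 scale with library totals alone. Of 40 splicing factors 22 were higher (55.0%) and 9 lower (22.5%), but 7 and 22 with library totals alone. Srsf5, an SR protein, was the only member past 2-fold, at 147, 151, 145 and 149 CPM against 301, 313, 303 and 300.4 (2.06-fold lower), beside Srsf4 and Srsf6, also lower, and Srsf2, 1.27-fold higher. Of 327 zinc finger genes named Zfp 102 were higher and 82 lower, both shares below those of all genes (69 and 129 with library totals alone). Zfp703 was at 44.3, 45.6, 46.3 and 46.6 CPM against 14, 14.6, 12.8 and 13.5 (3.36-fold higher), and Zfp319 at 18.4, 18.1, 16.8 and 18.4 against 42, 38.1, 41.2 and 40.6 (2.26-fold lower).

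Clock genes also differed in both directions. Of 16 tested 7 were higher (43.8%) and 6 lower (37.5%), 5 and 1 at least 2-fold, and 6 and 7 with library totals alone. For all genes the shares were 34.7% and 35.3%, and 5.82% and 5.33% at least 2-fold. Nr1d1 (chromosome 11, 98767932 to 98775377), the REV-ERB alpha repressor, was at 32.4, 31.6, 31.6 and 31.3 CPM in responders and 6.64, 6.24, 7.41 and 7.42 in bystanders, with 11.3 to 11.8 untreated (4.52-fold higher, log2 2.18, SE 0.066, adjusted p = 8.52e-38, edgeR). Its relative Nr1d2 was at 10.4, 11.7, 13.6 and 12.9 against 27.2, 27, 25.5 and 27.8 (2.22-fold lower, log2 -1.15, SE 0.072, adjusted p = 7.48e-22, edgeR). Per2 was at 5.36 ± 0.331 against 2.21 ± 0.155 CPM and Ciart at 8.81 ± 0.943 against 3.77 ± 0.427 (SD, n = 4 each), both higher, and Tef was 1.84-fold lower. Bystanders were below untreated cells for Nr1d1, Per2 and Ciart, and above them for Nr1d2. Of 44 ubiquitin-specific proteases 17 were higher and 16 lower (8 and 27 with library totals alone), shares of 38.6% and 36.4% that were near the 34.7% and 35.3% of all genes. They ran from Usp35, 2.57-fold higher, to Usp38, 1.6-fold lower.

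Transcripts of mitosis were lower in responders, and most DNA repair genes were lower by small amounts. Of 37 G2/M genes tested 36 were lower (97.3%, beside 35.3% of all genes), 6 of them at least 2-fold (5.33% of all genes were). The remaining member, Cdc25b, did not pass the test at 0.02 on the log2 scale. The list had a median of -0.71 beside -0.01 over all genes, and with library totals alone all 37 were lower. Mki67, the proliferation marker Ki-67, was at 178, 178, 182 and 180.5 CPM in responders and 469, 479, 481 and 474 in bystanders, with 202 to 241 in the pool and 497 to 531 untreated (2.65-fold lower, log2 -1.41, SE 0.040, adjusted p = 1.38e-14, edgeR). Ncapd2, a condensin subunit, was at 52.1, 49, 48.6 and 48.7 against 117, 122, 124 and 117 CPM (2.42-fold lower), with 61.7 to 64 in the pool and 135 to 143 untreated. Cenpf, a kinetochore protein, was at 23.7, 22.5, 24.8 and 23.2 against 55.9, 61.3, 56.7 and 54.4 (2.42-fold lower), with 30.4 to 35.1 and 69.4 to 76. In these 3 genes every bystander library was below every untreated library, and every responder library below every pool library. Of 44 DNA repair genes 6 were higher (13.6%) and 27 lower (61.4%, median -0.24), beside 34.7% and 35.3% of all genes. Of the lower ones 1 was at least 2-fold, and with library totals alone 1 gene was higher and 34 lower. Neil3, a DNA glycosylase, was at 3.47, 3.41, 3.73 and 3.13 CPM against 9.79, 10.1, 10.6 and 10 (2.95-fold lower), Brca2 at 8.61, 10, 8.71 and 8.49 against 16.3, 17, 17.8 and 17.3 (1.92-fold) and Pole, the leading-strand polymerase, at 24.5, 22.5, 25.4 and 23.6 against 43, 42.4, 43.1 and 42.6 (1.78-fold). Ercc1, of nucleotide excision repair, was 1.42-fold higher, at 20.9, 21.2, 22.2 and 23.3 against 15.2, 15.8, 15.4 and 15.3 CPM.

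The promoters of these mitotic genes were read from RefSeq (GRCm38.p6), in windows from 250 bases before to 50 after 1 start site per gene. That start site lies inside the gene's outermost annotated bounds for 17 of 33 genes of the G2/M list (51.5%) and 46.9% of 9701 tested genes, so the part before the start site can hold bases annotated as gene. Genes of the late cell cycle are known for a CHR element and CCAAT boxes. The letters TTTGAA or TTCGAA on either strand were in 27 of 33 windows of the G2/M list (81.8%) and in 14.2% of the windows of 9701 tested genes, and CCAAT on either strand was in 72.7% against 39.2%. Both were in 22 windows (66.7%) against 6.10%. Among genes at least 2-fold higher and at least 2-fold lower in responders, TTTGAA or TTCGAA was in 14.3% of 533 and 15.5% of 522 windows. Stretches outside the annotated gene follow for Mki67 (190 to 72 bases before the start site used) and Cenpf (190 to 41 bases), 5′ to 3′ on the gene's strand, with matches in capitals (TTTGAA or its reverse complement, CCAAT or its reverse complement), to show how the letters are placed. They lie at chr7:135716451-135716569 and chr1:189688127-189688276, both on the minus strand. The window of Ncapd2 lies within its gene and is not shown.
Mki67: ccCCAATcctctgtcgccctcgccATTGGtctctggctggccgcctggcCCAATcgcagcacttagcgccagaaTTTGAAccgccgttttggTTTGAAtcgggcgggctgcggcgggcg
Cenpf: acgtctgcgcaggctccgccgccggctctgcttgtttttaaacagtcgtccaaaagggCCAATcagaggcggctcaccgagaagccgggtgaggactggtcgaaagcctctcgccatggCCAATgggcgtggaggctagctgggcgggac

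In these stretches Mki67 holds both kinds of match and Cenpf holds CCAAT matches alone. A motif like that of NF-kappaB sites was read on either strand as 3 G, any 2 bases, 3 T and 2 C. It was in 21 of 533 windows of genes at least 2-fold higher in responders (3.94%). Among genes at least 2-fold lower it was in 6 of 522 windows (1.15%), and in 1.69% of all 9701. Of the 21, Dusp5, a phosphatase that inactivates ERK, and Ifngr2, a receptor chain for interferon gamma, are shown as genes outside the cytokines, chosen after their values were seen. Dusp5 was at 161, 143, 143 and 149 CPM in responders and 48.7, 42.4, 51.9 and 49.5 in bystanders (3.07-fold), and Ifngr2 at 208, 221, 216 and 220.5 against 77.5, 89.5, 87.9 and 85.3 (2.54-fold). Both stretches, 190 to 41 bases before the start, are on the plus strand, at chr19:53528955-53529104 and chr16:91546869-91547018, with the motif in capitals. A match is a description of letters and not a site.
Dusp5: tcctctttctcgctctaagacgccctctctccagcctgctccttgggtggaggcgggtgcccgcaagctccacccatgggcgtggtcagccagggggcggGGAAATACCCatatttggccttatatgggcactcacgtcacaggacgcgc
Ifngr2: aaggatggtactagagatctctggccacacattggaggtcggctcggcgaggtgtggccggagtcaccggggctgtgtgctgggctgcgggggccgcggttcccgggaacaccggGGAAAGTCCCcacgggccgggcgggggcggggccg

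The comparison was repeated against bystanders 1 and 2 alone and against bystanders 3 and 4 alone, which share the responder libraries. Of the 8813 calls, 7364 (83.6%) were made in the same direction against each pair, and 0 genes passed edgeR's test in opposite directions, 0 also at an unadjusted p under 0.05. Of the 733 genes at least 2-fold higher, 689 were called against each pair and 635 were at least 2-fold against each, and of the 671 lower, 606 and 545. Folds were close for nearly all genes. Of 9805 genes with at least 5 CPM in the higher gate, the fold differed over 2-fold between pairs for 24 and over 1.5-fold for 39. Traf1 was 36.2-fold higher against bystanders 1 and 2 and 23-fold against 3 and 4, Ptgs2 18.6-fold and 15-fold, Acod1 7.51-fold and 6.71-fold. Rgs2 was 7.98-fold and 8.17-fold lower, and Mki67 2.62-fold and 2.65-fold.

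**Figure D5:**
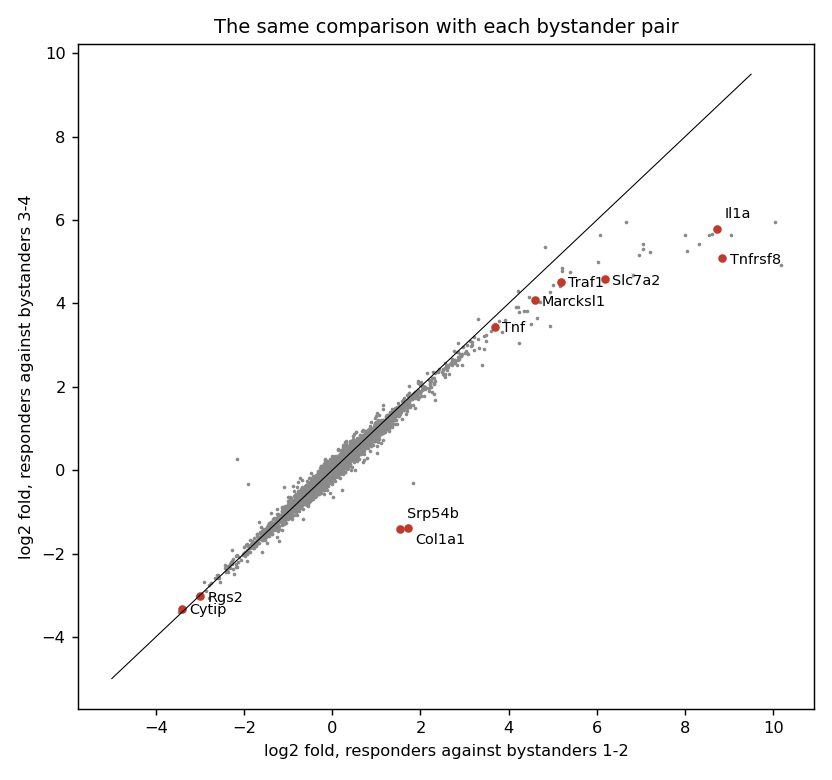
Log2 fold of responders against bystanders 1 and 2 (x axis) and against bystanders 3 and 4 (y axis) for 9805 genes with at least 5 CPM in the higher gate, with the line of equality. Most genes lie on the line, while those with the highest folds, such as Il1a and Tnfrsf8, bend below it.

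The ratio of bystanders 3 and 4 to bystanders 1 and 2 grew with the fold of responders over bystanders 1 and 2. Both measures are divided by the level in bystanders 1 and 2, so they are not independent. Of 16 genes at least 2-fold higher in bystanders 3 and 4 than in 1 and 2 (with at least 5 CPM in the former), 9 were higher in responders, each at least 8-fold above bystanders 1 and 2, and 3 genes differed the other way. The gap in CPM between the pairs was also taken as a share of the difference between responders and bystanders 1 and 2. Only genes that passed the test against bystanders 1 and 2 and a minimum responder level were used. Levels in bystanders 1 and 2 thus entered the choice of genes, the fold classes and the share. Its medians were 1.97% (quartiles 0.189 to 3.99%) for 263 genes 2-fold to 4-fold above bystanders 1 and 2 and 1.72% for 60 at 4-fold to 8-fold. They were 1.59% for 17 at 8-fold to 16-fold and 1.75% (quartiles 1.62 to 1.90%) for 11 at 64-fold or more. For 2644 genes 1-fold to 2-fold above bystanders 1 and 2 the median was 1.12%, with wide quartiles from -9.75 to 10.9%. Over the 6 classes from 2-fold upward the medians ran from 1.42 to 2.0%. In the last class the levels in bystanders 3 and 4 were a median of 6.98 times those in 1 and 2. Il1a, for example, was at 4.75, 5.15, 37.8 and 38.7 CPM in the 4 bystander libraries and 2029, 2112, 2152 and 2107 in responders. Bystanders 3 and 4 are also the bystander libraries with neural transcripts, and the collagen gene Col1a1 was at 4.92, 1.7, 53.7 and 3.12 CPM in bystanders, highest in replicate 3. Their part in the gap was not tested. Of 458 non-coding RNAs annotated by RefSeq as lncRNA, 105 were higher (22.9%) and 98 lower (21.4%) in responders. Of 11510 protein-coding genes 4113 were higher (35.7%) and 4263 lower (37.0%). At least 2-fold higher and lower were 36 and 33 of the lncRNAs and 653 and 607 of the protein-coding genes.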

How the data were processed

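The authors deposited raw counts per gene for 16 libraries of 4 groups. The submitters' processing notes list featureCounts 2.1.1, HISAT2 2.2.2, fastp 1.1.0 and cutadapt 3.7, and the mouse build GRCm38 (mm10). No source used here gives the strandedness, the annotation or the handling of multi-mapping reads, so genes with near-identical copies, overlaps or antisense partners are uncertain. Of 27179 gene identifiers 25275 were given symbols from RefSeq (GRCm38.p6), and 1904 without one, 0.399% of all counts, were tested under their numbers. Totals ran from 15287344 to 25193162 counts per library. The limits of a low count cover counting error only.

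Counts were fitted with edgeR 4.0.16 (R 4.3.3): filterByExpr, TMM scaling and a robust quasi-likelihood model of all 16 libraries, with group means as the only terms. The contrast was responders minus bystanders, tested two-sided, with Benjamini-Hochberg adjustment over 12589 genes. The script was tested on simulated data. Alternatives were library totals alone, DESeq2 1.42.0, limma-voom 3.58.1, no filter, a test against 1.5-fold, fewer libraries and the replicate number as a block. The split by neural transcripts (20 or more reads of Stmn2) was added after the data were seen.

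The members and the 27 gene lists were chosen with earlier results of these data known, and lists are described by counts and medians, without a test. Named genes come from a rule: the 20 highest and 20 lowest folds outside cytokines (5 CPM or more in the higher gate, gates not overlapping), up to 3 members each way per list, the 15 largest gains and losses in CPM, 4 reference genes and the 10 genes that differ most between bystander pairs. Of these, the genes that carry each description are given. Cdc25b, Dusp5 and Ifngr2 were added after their values were seen. A few genes and 1 further list are not reported here.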

Additional observations from a re-analysis of the deposited data

Results flagged for a closer look

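In 14 of 270 groups of 4 libraries (135 genes named, 2 gates), the extreme library stood apart from the other 3 by more than Dixon's 95% limit, and chance alone flags about 1 group in 20. In responders, replicate 1 was the high library for Ncapd2 (52.1 CPM, others 48.6 to 49.0) and the low library for Slc40a1 (18.9, others 21.3 to 21.7) and Srsf4 (65.2, others 68.4 to 68.6). Replicate 2 was high for Fpr1 (9.48, others 6.47 to 6.92), Id3 (58.5, others 52.4 to 53.4) and Brca2 (10.0, others 8.49 to 8.71). Replicate 3 was high for Usp35 (15.6, others 12.6 to 13.0) and low for G6pdx (325, others 328 to 329), and replicate 4 high for Slc7a11 (82.7, others 77.1 to 77.9). In bystanders, replicate 1 was the low library for Ptpre (36.1, others 38.2 to 38.6), Ptprj (57.5, others 62.7 to 63.6) and Rrm1 (264, others 274 to 275). Replicate 3 was high for Col1a1 (53.7, others 1.70 to 4.92) and low for Ep300 (117, others 119 to 120). Only the Col1a1 library stood more than 2-fold from its nearest neighbour.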

How the results depend on the processing

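Library totals alone moved the calls from 4364 higher and 4449 lower to 2580 and 6695, and testing against 1.5-fold left 1049 and 991. Calls were thus 49.5% higher at first and 27.8% higher under that scaling. Counts at 2-fold or more stayed within 1.5 times of 733 and 671 under every alternative run. Without 1 responder or bystander library at a time, the calls ranged from 4254 to 4338 higher and from 4270 to 4330 lower. With the replicate number as a block they were 4356 and 4451. Same-numbered responders and bystanders deviated together with correlations of -0.426, 0.240, -0.164 and -0.211. Responder 1 had correlations of 0.427 and 0.479 with bystanders 3 and 4, which like it hold neural transcripts. That split can hide a pairing, so this check cannot decide whether the numbers pair the samples. Of 2295 values of 135 named genes under alternatives, 2289 were counted as unchanged. For the 133 genes called in the main fit, unchanged means the same direction and side of the threshold. For the others a change of sign was also counted as unchanged. Cdc25b, not called in the main fit, was called lower with library totals alone. Nup50 and Nup37 turned to -0.0406 and -0.0676 on the log2 scale with library totals alone, where neither passed. Nup37 was also lost against bystanders 1 and 2 and in the 10 libraries without neural transcripts (adjusted p = 0.0902 and 0.0512 by edgeR). The cause was not tested. The 6 libraries with neural transcripts hold 1 responder against bystanders 3 and 4, so that fit assumes that the lone responder varies like the other groups, and its losses of Nup50 and Nup37 (adjusted p = 0.0688 and 0.361 by edgeR) do not show a dependence on those transcripts. Of 918 counts of list members under alternatives 39 moved by over 1.5 times, 25 of them with library totals alone and 11 in that fit with 1 responder.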
